A study of Drosophila melanogaster and Drosophila simulans and Drosophila sechellia with 48 samples.

Results

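CG2201, Asator, CG8066 and Gli are 4 of the 1906 named genes measured at every stage in D. melanogaster, D. sechellia and D. simulans, and they are also among the 1706 measured in the F1 hybrids. They were selected on their log2 ratios in late pupae (CG2201 and Asator) or in adults (CG8066 and Gli), where D. melanogaster stood apart from D. simulans, so those values are given here as a description with no test. Each gene was found by its symbol in the probe annotation, was represented by 1 element spotted 2 times on the array, and was measured in all 16 groups of species and stage.

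The study compared whole-body males of D. melanogaster, of F1 hybrids from D. simulans females and D. sechellia males, of D. sechellia (a Cousin Island strain) and of D. simulans, with a single strain for each pure species. The stages were larvae (96 h), early pupae (4 h in the sample labels and 2 h after puparium formation in the methods), late pupae (72 h) and adults (1.5 h after eclosion). Each sample was RNA of 25 males, amplified in a pair of rounds and hybridised to D. melanogaster cDNA arrays beside an unamplified mixed-stage D. melanogaster reference that all arrays shared, so every value is a log2 ratio of sample to reference and 0 equals the reference. Each pure species had 1 pool per stage on 3 technical arrays, while the 3 arrays of a hybrid stage came from separate pools. In 7 groups, 2 of the 3 arrays also shared the differences between their duplicate spots (correlations of 0.61 to 0.97, against -0.03 to 0.04 in the 41 other pairs of arrays within a group), and such a pair was averaged before the group mean was taken. These were D. melanogaster early pupae, the late pupae and adults of D. simulans, the early pupae, late pupae and adults of D. sechellia, and hybrid adult pools 1 and 2, so that the hybrid adults count as 2 units.

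The 4 genes have unrelated roles. CG2201 encodes a predicted choline or ethanolamine kinase, the type of enzyme that starts the synthesis of the main membrane phospholipids by phosphorylating the head group. Asator encodes a protein kinase of the casein kinase 1 superfamily, related to tau tubulin kinases, which associates with the spindle matrix protein Megator. CG8066 encodes a predicted cystatin, an inhibitor of cysteine proteases, and lies on chromosome 3R beside Cys and CG31313, which are also cystatin genes. Gli encodes gliotactin, a transmembrane protein with a cholinesterase-like domain that sits at tricellular junctions, the corners where epithelial cells meet, and that is needed for the septate junctions sealing epithelia and the glial sheath of the nerves. CG2201 and Gli lie on chromosome arm 2L and Asator on chromosome 4, where it overlaps CG33941. The element does not tell the RNA of overlapping genes apart unless its sequence does, which was not examined, and the stretch of transcript it covers is not known here.

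Few stage markers were measured, and they followed the labelled stages in part. Eig71Ed, a gene induced by ecdysone in prepupae, was called higher in early pupae than in larvae in all 4 groups (by 5.50 in D. melanogaster, 4.89 in the hybrids, 4.58 in D. sechellia and, for D. simulans, 4.44 on the log2 scale). The medians of the larval serum and fat body genes Fbp1 and Fbp2 were between -4.59 and -3.60 in adults, against -0.82 to 0.01 in larvae. The glue gene ng3 did not follow its stage in every group, at -1.49 in early pupae against -1.41 in larvae of the hybrids and -0.34 against -0.95 in D. simulans. The eye gene Arr1 was not higher in adults than in larvae in any group. It was at -1.59 in adults against -1.20 in larvae of D. melanogaster and -1.93 against -1.09 in the hybrids. In D. sechellia it was at -1.10 against -0.85, and in D. simulans at -0.91 against -0.89. None of the yolk, chorion or accessory gland genes listed was measured, so the sex of the samples was not checked. Medians of tissue markers were unequal between the groups at the stages that chose the genes, with no test run on the medians. The median log2 ratio of 11 sarcomere and flight muscle genes in late pupae was -0.87 in D. melanogaster, -0.23 in the hybrids, -0.05 in D. sechellia and, for D. simulans, -0.04. In adults it was -0.67 in D. melanogaster, 0.05 in the hybrids, 0.71 in D. sechellia and, for D. simulans, -0.05. The median difference of these genes between D. melanogaster and D. simulans was -0.94 in late pupae and -0.63 in adults, against -0.08 and -0.05 over all genes. The median of 11 testis genes (9 in the hybrids) in late pupae was 0.72 in D. melanogaster, -0.24 in the hybrids, -0.02 in D. sechellia and, for D. simulans, 0.64, and in adults 0.80 in D. melanogaster, -0.62 in the hybrids, 0.96 in D. sechellia and, for D. simulans, 0.96. Tested singly against D. sechellia adults, 4 of the 9 testis genes were called lower in hybrid adults and 0 higher, against 2.99% of all genes. In late pupae 0 of the 9 were called in that comparison, and of the 11 sarcomere and flight muscle genes 0 were called at either stage. Fewer cells of a type and less RNA per cell cannot be told apart in whole bodies, and the part of these tissues in the values of the 4 genes was not tested.

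A difference was called at an adjusted p under 0.05 (limma moderated test over all genes, Benjamini-Hochberg) together with a change of at least 1.5-fold. Among the comparisons that did not use the late pupae or adults of D. melanogaster or D. simulans, all 7 calls were changes between stages, in D. sechellia or in the hybrids. The genes gave 7 calls in 32 tests of stage changes, against 12.8% of all tests of genes in the same comparisons. Without hybrid larval pool 1 they gave 11, against 18.5% of all tests, and without array 2 or without array 3 of every group 3 each, against 8.33% and 5.35%. In the tests between pure species in larvae and early pupae they gave 0 calls in 24 tests, against 0.114% of all tests called. Of these 24 tests, 8 had an unadjusted p under 0.05. Over all 1906 genes, 51 to 288 were under 0.05 unadjusted, depending on the comparison. Without hybrid larval pool 1 the selected genes gave 1 call, against 0.927% of all tests in that fit. Hybrids against their parents also gave 0 calls in 24 tests, against 0.938% of all tests called. Of those 24 tests, 3 had an unadjusted p under 0.05. Over all 1706 genes, 47 to 348 were under 0.05 unadjusted, depending on the comparison. Each pure group was 1 pool, so the spread between pools came from the hybrids alone and was assumed for the species. The p-values that involve pure groups therefore set a difference against the hybrid spread. They hold no spread between samples of those groups. Arrays that do not overlap are described without the share of all genes that separated in the same way, which was counted only for opposite stage changes. Within a pure species they are technical arrays of 1 pool per stage, so their separation holds no spread between pools.

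**Figure D1:**
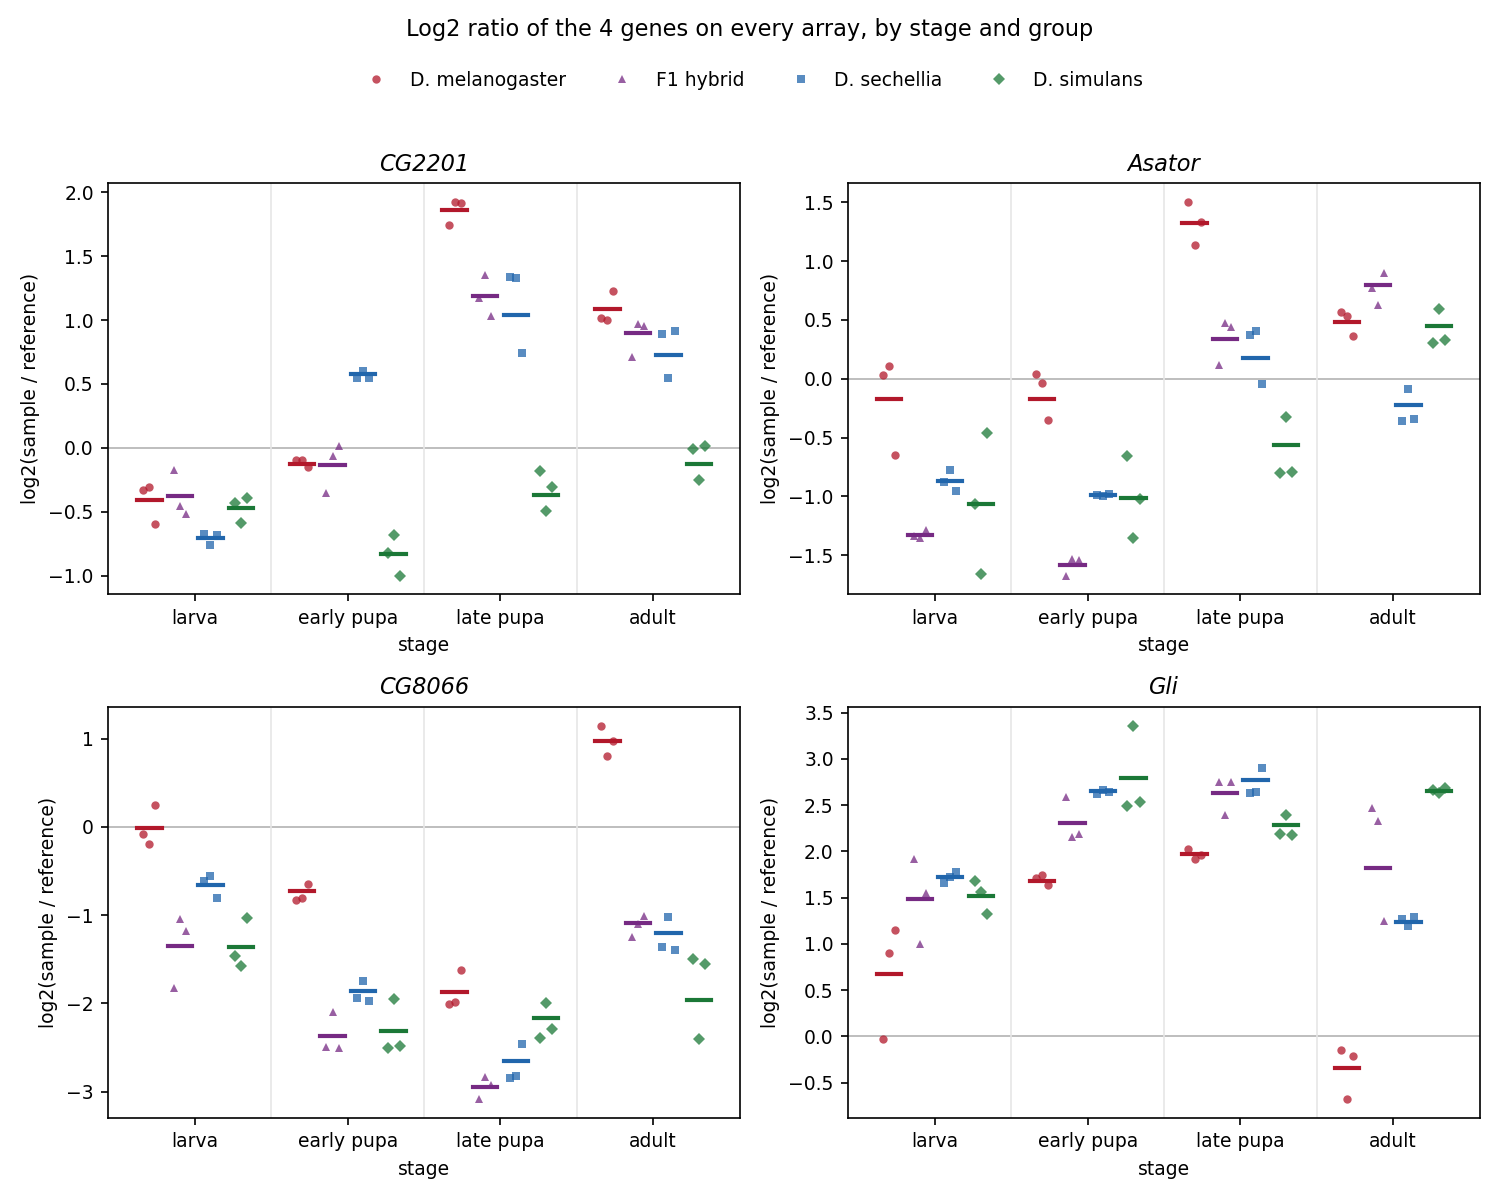
Log2 ratio of sample to reference of each gene (vertical axis) on every array, by stage (horizontal axis) and group, with points for arrays and horizontal lines for group means after near-identical arrays were averaged. D. melanogaster lies above the other groups in late pupae for CG2201 and Asator, above them in adults for CG8066 and below them in adults for Gli.

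CG2201 was highest in D. melanogaster late pupae and lowest in D. simulans early pupae. In late pupae, where it was chosen, its log2 ratios were 1.74, 1.92 and 1.92 in D. melanogaster, 1.17, 1.35 and 1.03 in the hybrids, 1.34, 1.33 and 0.75 in D. sechellia and -0.18, -0.49 and -0.31 in D. simulans. The D. melanogaster arrays lay above all others and the D. simulans arrays below all others, while the arrays of the hybrids and of D. sechellia overlapped. The means were 1.86 in D. melanogaster and -0.37 in D. simulans, a difference of 2.23 or 4.69-fold, and 2 of the 1906 genes had a larger difference. In adults the values were 1.02, 1.00 and 1.23 in D. melanogaster, 0.71, 0.97 and 0.95 in the hybrids, 0.89, 0.55 and 0.92 in D. sechellia and -0.01, -0.25 and 0.02 in D. simulans. The groups stood in the same order as in late pupae, the hybrids and D. sechellia again overlapped, and the gap between D. melanogaster and the hybrids was 0.19, against 0.67 in late pupae.

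Before late pupation the order of CG2201 was different. In early pupae the log2 ratios were -0.09, -0.10 and -0.15 in D. melanogaster, -0.35, -0.06 and 0.02 in the hybrids, 0.55, 0.60 and 0.55 in D. sechellia and -0.82, -0.68 and -1.0 in D. simulans. Here D. sechellia stood above every other group and D. simulans below every other group, and D. melanogaster and the hybrids overlapped. The difference between D. sechellia and D. simulans was 1.41 (SE 0.36, limma unadjusted p = 0.00117, adjusted p = 0.319) and was not called. The hybrids lay between their parents, at -0.71 relative to D. sechellia (SE 0.30, adjusted p = 0.997 in the same test) and 0.70 relative to D. simulans (SE 0.30, adjusted p = 0.280). In larvae all group means fell between -0.70 in D. sechellia and -0.38 in the hybrids, and D. melanogaster, the hybrids and D. simulans overlapped, with -0.33, -0.31 and -0.59 in D. melanogaster, -0.17, -0.45 and -0.52 in the hybrids, -0.68, -0.76 and -0.68 in D. sechellia and -0.43, -0.59 and -0.39 in D. simulans.

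CG2201 was called higher at the later stage in D. sechellia and in the hybrids, at different steps. In D. sechellia it was called between larvae and early pupae, at 1.28 (SE 0.36, adjusted p = 0.0304, limma), and changed by 0.47 between early and late pupae (adjusted p = 0.514). In the hybrids the step between larvae and early pupae was 0.25 (adjusted p = 0.473) and that between early and late pupae was called, at 1.32 (SE 0.21, adjusted p = 1.05e-04). In the hybrids every late pupal pool lay above every early pupal pool. The same step was 1.98 in D. melanogaster and 0.46 in D. simulans, values that were not tested. The group means spanned 2.27 on the log2 scale over the 4 stages in D. melanogaster, 1.56 in the hybrids, 1.74 in D. sechellia and, for D. simulans, 0.71. The larval to early pupal change differed by 1.64 between D. sechellia and D. simulans (limma test of the difference, unadjusted p = 0.00516, adjusted p = 0.956). For the hybrids minus D. sechellia it differed by -1.03 in the same test (unadjusted p = 0.0243, adjusted p = 0.518). The early to late pupal change differed by 0.85 (unadjusted p = 0.0567, adjusted p = 0.9995), so neither step was shown to differ between the hybrids and D. sechellia. The call in D. sechellia was lost without array 2 of each group (adjusted p = 0.0692), without array 3 of each group (0.0782) and after quantile normalization (0.0524), while that in the hybrids was kept with any 1 hybrid pool left out.

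Asator was highest in D. melanogaster late pupae and lowest in the early pupae of the hybrids. In late pupae, where it was chosen, its log2 ratios were 1.50, 1.14 and 1.33 in D. melanogaster, 0.11, 0.47 and 0.44 in the hybrids, 0.37, 0.41 and -0.04 in D. sechellia and -0.80, -0.32 and -0.79 in D. simulans. As for CG2201, D. melanogaster lay above and D. simulans below all other groups, and the hybrids overlapped with D. sechellia. The mean of 1.32 in D. melanogaster against -0.56 in D. simulans gave a difference of 1.88, which 18 of the 1906 genes exceeded. The adults did not keep this order, with 0.56, 0.53 and 0.36 in D. melanogaster, 0.77, 0.62 and 0.90 in the hybrids, -0.36, -0.09 and -0.34 in D. sechellia and 0.30, 0.59 and 0.33 in D. simulans. The D. melanogaster and D. simulans adults overlapped (difference 0.03), the hybrids lay above them and D. sechellia below them.

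In larvae the Asator log2 ratios were 0.03, 0.11 and -0.65 in D. melanogaster, -1.34, -1.36 and -1.29 in the hybrids, -0.88, -0.77 and -0.96 in D. sechellia and -1.06, -1.66 and -0.46 in D. simulans. In early pupae they were 0.04, -0.03 and -0.35 in D. melanogaster, -1.67, -1.53 and -1.54 in the hybrids, -0.99, -1.0 and -0.98 in D. sechellia and -0.65, -1.36 and -1.03 in D. simulans. At both stages D. melanogaster was the highest group on average. Its early pupal arrays lay above all others, whereas in larvae 1 D. simulans array lay above the lowest D. melanogaster array. The differences from D. simulans were 0.89 in larvae (SE 0.35, unadjusted p = 0.0197, adjusted p = 0.475, limma) and 0.84 in early pupae (unadjusted p = 0.0272, adjusted p = 0.627), and that from D. sechellia in early pupae was 0.82 (unadjusted p = 0.0310, adjusted p = 0.365). D. sechellia and D. simulans overlapped at both stages, with differences of 0.19 and 0.02.

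Asator was called higher in late than in early pupae in the hybrids, by 1.93 (SE 0.20, adjusted p = 9.99e-07, limma), and in D. sechellia, by 1.16 (SE 0.35, adjusted p = 0.0439). In both groups no late pupal array overlapped with an early pupal one. The corresponding values that were not tested were 1.50 in D. melanogaster and 0.45 in D. simulans, whose Asator level was highest in adults (1.01 above its late pupae). The hybrid call was kept with any 1 hybrid pool left out. The D. sechellia call was lost in 7 of the 12 fits that left out 1 hybrid pool, since the spread is taken from these pools (adjusted p of 0.0517 to 0.0621 in those 7). These left out larval pools 2 or 3, any early pupal pool, or late pupal pools 2 or 3. The call was also lost without array 2 (0.120) or array 3 (0.0738) of each group, and after scaling arrays to the same SD (0.0683) or quantile normalization (0.0593). In adults the hybrids exceeded D. sechellia by 1.02 (SE 0.30, adjusted p = 0.0861), with all hybrid arrays above all D. sechellia arrays. This was not called, but was when near-identical arrays were not averaged (adjusted p = 0.0327).

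CG8066 stood apart in D. melanogaster adults. Its adult log2 ratios, for which it was chosen, were 1.15, 0.80 and 0.97 in D. melanogaster, -1.25, -1.10 and -1.01 in the hybrids, -1.36, -1.02 and -1.39 in D. sechellia and -1.50, -2.40 and -1.55 in D. simulans. D. melanogaster was the only group above the reference, and D. simulans lay below the hybrids and D. sechellia, whose arrays overlapped. The difference between D. melanogaster (0.97) and D. simulans (-1.97) was 2.94, or 7.66-fold, and 1 of the 1906 genes had a larger one. That between D. melanogaster and D. sechellia (-1.20), which shares the D. melanogaster adults, was 2.17, with 5 genes beyond it. In late pupae the log2 ratios were all well under the reference, with -2.01, -1.99 and -1.62 in D. melanogaster, -3.09, -2.84 and -2.93 in the hybrids, -2.85, -2.82 and -2.46 in D. sechellia and -2.40, -1.99 and -2.29 in D. simulans. At that stage D. melanogaster and D. simulans overlapped and differed by 0.30, and both lay above the hybrids and D. sechellia on average.

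In larvae CG8066 had log2 ratios of -0.08, -0.19 and 0.24 in D. melanogaster, -1.82, -1.05 and -1.18 in the hybrids, -0.61, -0.55 and -0.80 in D. sechellia and -1.47, -1.58 and -1.03 in D. simulans. In early pupae they were -0.83, -0.81 and -0.64 in D. melanogaster, -2.49, -2.10 and -2.50 in the hybrids, -1.94, -1.75 and -1.98 in D. sechellia and -2.51, -1.95 and -2.48 in D. simulans. The hybrids overlapped with D. simulans at both stages. D. melanogaster lay above all other groups at both stages with no overlap, on technical arrays of 1 pool per stage. The difference from D. simulans was 1.35 in larvae (SE 0.41, unadjusted p = 0.00398, adjusted p = 0.296, limma) and 1.58 in early pupae (SE 0.41, unadjusted p = 0.00115, adjusted p = 0.199). In early pupae the difference from D. sechellia was 1.12 (unadjusted p = 0.0131, adjusted p = 0.271). None of these was called, with the exception that without hybrid larval pool 1, which at -1.82 lay below the other pools of its stage, the early pupal difference from D. simulans had an adjusted p of 0.0382.

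By group mean CG8066 was lowest in late pupae in D. melanogaster, the hybrids and D. sechellia, and in early pupae in D. simulans. In the hybrids it fell by 1.02 between larvae and early pupae (SE 0.23, adjusted p = 0.00464, limma), changed by -0.59 between early and late pupae (adjusted p = 0.0561) and rose by 1.86 between late pupae and adults (SE 0.26, adjusted p = 8.08e-05). In D. sechellia the changes were -1.20 (adjusted p = 0.0658), -0.79 (adjusted p = 0.297) and a called rise of 1.45 (SE 0.41, adjusted p = 0.0469). The late pupal to adult step, which was not tested in the other species, was 2.85 in D. melanogaster and 0.21 in D. simulans, where the arrays of both stages overlapped. The larval to early pupal change was -0.72 in D. melanogaster (adjusted p = 0.462) and -0.95 in D. simulans (unadjusted p = 0.0313, adjusted p = 0.218).

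The hybrid rise of CG8066 to adults was kept with any 1 hybrid pool left out, as was the hybrid fall to early pupae, but that fall was lost without array 2 (adjusted p = 0.0599, limma) or array 3 (0.160) of each group. The D. sechellia rise was lost in 8 of the 12 fits that left out 1 hybrid pool (adjusted p of 0.0539 to 0.0647 in those 8: larval pool 3, any early pupal pool, any late pupal pool and adult pool 3), without array 2 (0.134) or array 3 (0.113) of each group, and with a variance prior that follows the mean level (0.0732). Without hybrid larval pool 1, the hybrid change between early and late pupae (0.0222) and the D. sechellia change between larvae and early pupae (0.0202) passed. The D. sechellia change also passed without array 1 of each group (0.0243). The hybrid change between early and late pupae depended on the scaling of the arrays, at -1.05 after scaling to the same SD (adjusted p = 0.00143, limma) and -1.47 after quantile normalization (5.14e-05).

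Gli was the only one of the 4 that was lower in D. melanogaster than in D. simulans. In adults, where it was chosen, its log2 ratios were -0.15, -0.68 and -0.21 in D. melanogaster, 2.47, 2.33 and 1.25 in the hybrids, 1.27, 1.19 and 1.29 in D. sechellia and 2.66, 2.64 and 2.69 in D. simulans. D. melanogaster was the only group under the reference, D. simulans lay above all others, and 1 hybrid pool overlapped with D. sechellia while the near-identical pools 1 and 2 lay close to D. simulans. The difference between D. melanogaster (-0.35) and D. simulans (2.66) was -3.00, a level 8.01-fold lower in D. melanogaster, and 0 of the 1906 genes had a difference of larger size. In late pupae the values were 2.02, 1.92 and 1.97 in D. melanogaster, 2.75, 2.39 and 2.75 in the hybrids, 2.64, 2.64 and 2.90 in D. sechellia and 2.19, 2.39 and 2.17 in D. simulans. All 4 groups were then well above the reference, with D. melanogaster still the lowest, at -0.32 relative to D. simulans.

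Gli log2 ratios in early pupae were 1.71, 1.74 and 1.64 in D. melanogaster, 2.59, 2.15 and 2.18 in the hybrids, 2.62, 2.67 and 2.64 in D. sechellia and 2.50, 3.36 and 2.53 in D. simulans. D. melanogaster lay below all other groups, and D. sechellia and D. simulans overlapped. The difference between D. melanogaster and D. simulans was -1.11 (SE 0.51, unadjusted p = 0.0420, adjusted p = 0.693, limma), and that between D. melanogaster and D. sechellia was -0.97 (adjusted p = 0.419). In larvae the values were -0.02, 0.90 and 1.15 in D. melanogaster, 1.92, 1.00 and 1.55 in the hybrids, 1.66, 1.72 and 1.78 in D. sechellia and 1.69, 1.56 and 1.32 in D. simulans. Larval D. melanogaster array 1, the lowest, averaged spots of 1.13 and -1.17, a gap of 2.30 between duplicates where the median gap of the Gli element was 0.16, so the larval mean of 0.67 rests in part on discordant spots. The other 2 larval D. melanogaster arrays lay below all D. sechellia and D. simulans arrays, and 1 of them lay within the range of the hybrids.

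Gli was higher in early pupae than in larvae in every group, by 1.01 in D. melanogaster, 0.82 in the hybrids, 0.93 in D. sechellia and, for D. simulans, 1.27. None of these changes was called (adjusted p of 0.384, 0.0577, 0.215 and 0.180 in the same order, limma). The arrays of the 2 stages did not overlap within any group, but in the pure species they were technical arrays of 1 pool per stage. Between late pupae and adults it changed by -0.81 in the hybrids (unadjusted p = 0.0245, adjusted p = 0.121) and -1.53 in D. sechellia (unadjusted p = 0.00756, adjusted p = 0.0947), and by values not tested of -2.31 in D. melanogaster and 0.37 in D. simulans. The SE of the Gli changes, 0.29 in the hybrids between larvae and early pupae and 0.51 in D. sechellia, was the largest among the 4 genes. Its larval hybrid pools ranged between 1.00 and 1.92, and without larval pool 1 the hybrid change between larvae and early pupae (0.0116) and the D. sechellia change to adults (0.0403) passed. The hybrid change to early pupae also passed without hybrid adult pool 3 (0.0303). Without array 1 of each group, the D. sechellia change to adults (0.0447) and the D. simulans change to early pupae (0.0445) passed. With arrays scaled to the same SD, the changes to adults passed in the hybrids (0.0440) and in D. sechellia (0.0476).

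**Figure D2:**
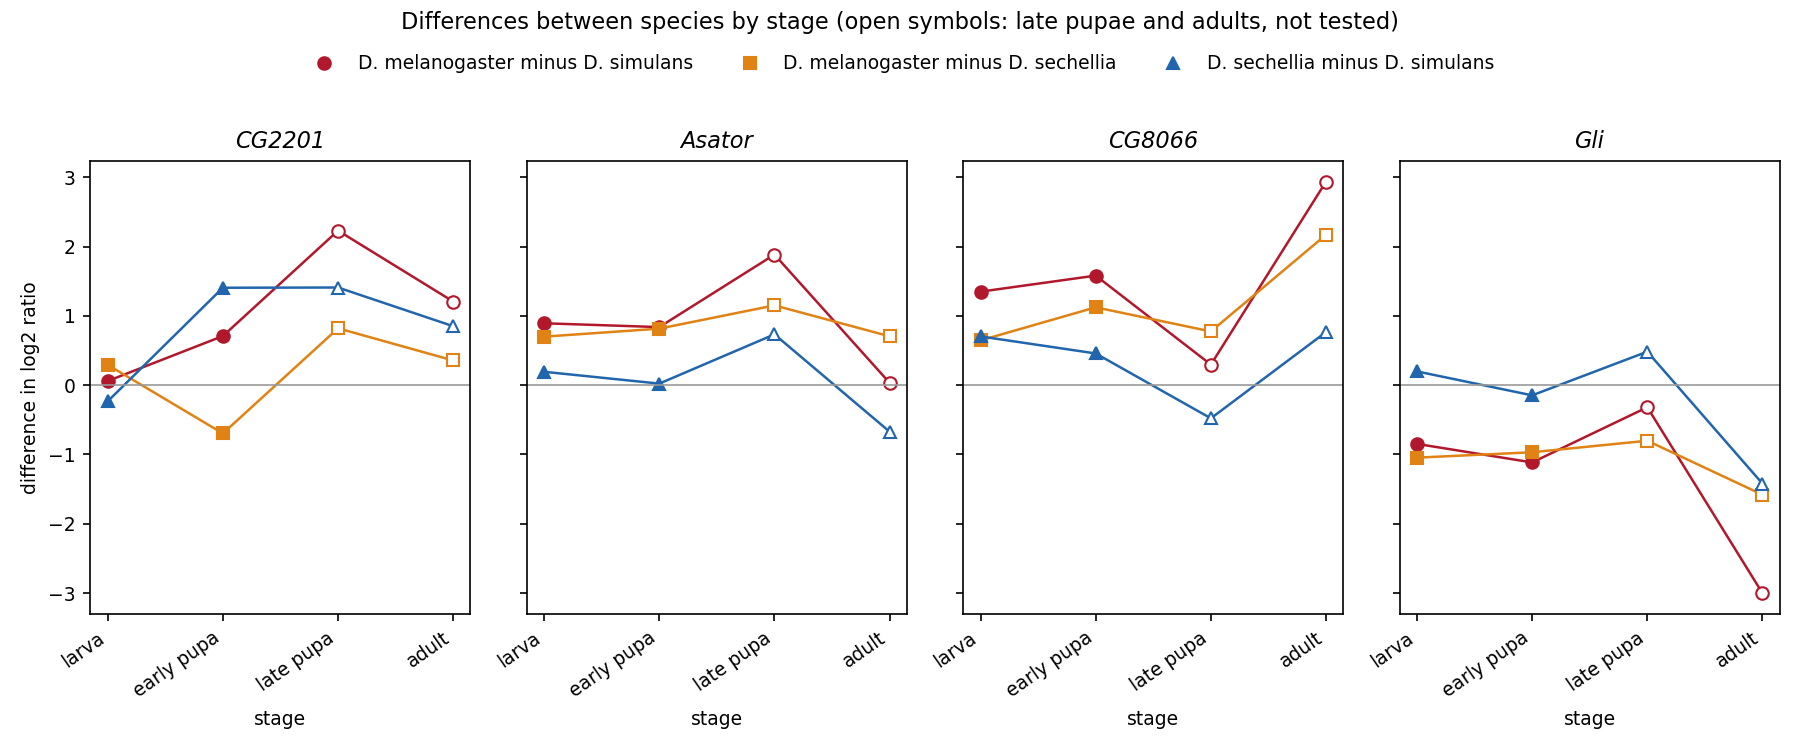
Differences in log2 ratio between the group means of 2 species (vertical axis) by stage (horizontal axis), with filled symbols where a difference was tested and open symbols where it was not. The difference between D. melanogaster and D. simulans peaks in late pupae for CG2201 (2.23) and Asator (1.88) and in adults for CG8066 (2.94) and Gli (-3.00).

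The difference between D. melanogaster and D. simulans was thus not of 1 size over development for any of the genes. Over larvae, early pupae, late pupae and adults in that order, it was 0.06, 0.71, 2.23 and 1.21 for CG2201, and for Asator it was 0.89, 0.84, 1.88 and 0.03. For CG8066 it was 1.35, 1.58, 0.30 and 2.94, and for Gli -0.85, -1.11, -0.32 and -3.00. The sign of each gene was the same at all stages, and the smallest difference was in larvae for CG2201, in adults for Asator and in late pupae for CG8066 and Gli. Gli was higher in D. simulans at every stage, and Asator differed by 0.03 in adults. The arrays carry D. melanogaster sequence, so a weaker hybridisation of RNA from the other species would lower their ratios at every stage. The part of such hybridisation in the size of the differences was not tested.

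Among all genes the share called between species was low in the comparisons tested. In larvae it was 0% for D. melanogaster against D. simulans, 0% for D. melanogaster against D. sechellia and 0% for D. sechellia against D. simulans. In early pupae it was 0%, 0.577% and 0.105% for the same pairs. With so few genes called at all, the 0 calls of the 4 genes cannot show whether they are like this background. At an unadjusted p under 0.05 (limma) they gave 8 of 24 tests, against 51 to 288 of the 1906 genes per comparison. In D. melanogaster against D. simulans, 0.105% of genes in late pupae and 0.105% in adults passed the threshold that chose the 4 genes, a share fixed by that choice. Those just outside it were, in late pupae, Npc2b (-1.82), CG10077 (2.08) and Dbp80 (1.96), and in adults CG18596 (1.58), mei-S332 (-1.72) and cwo (1.98), while those inside it were CG2201 (2.23) and Asator (1.88) in late pupae and CG8066 (2.94) and Gli (-3.00) in adults. CG10077 and Dbp80 had larger differences than Asator.

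D. sechellia lay between D. melanogaster and D. simulans at the stage that chose each gene. Relative to D. melanogaster, with the sign of D. melanogaster minus D. sechellia, the differences were 0.82 for CG2201 and 1.15 for Asator in late pupae and 2.17 for CG8066 and -1.58 for Gli in adults. Relative to D. simulans, with the sign of D. sechellia minus D. simulans, they were 1.41 and 0.73 in late pupae and 0.77 and -1.42 in adults. CG2201 in D. sechellia was thus nearer to D. melanogaster, and CG8066 nearer to D. simulans. These values share the D. melanogaster or D. simulans arrays that chose the genes and carry no test.

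**Figure D3:**
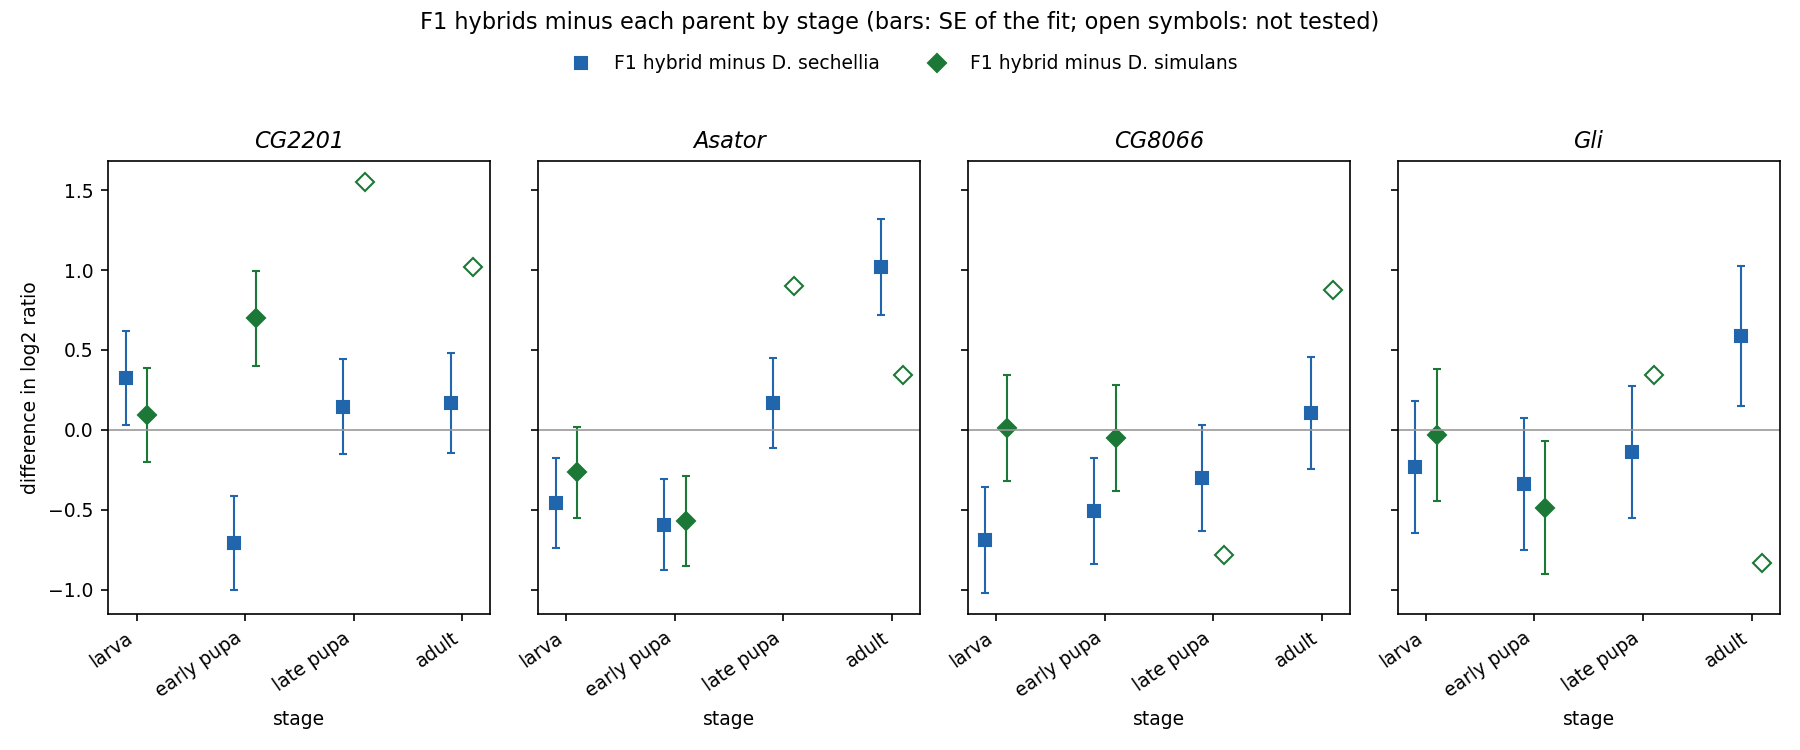
F1 hybrid minus parent difference in log2 ratio (vertical axis) by stage (horizontal axis) for each gene, with squares for D. sechellia and diamonds for D. simulans as the parent, bars for the SE of the fit and open symbols for differences that were not tested. The largest difference from D. sechellia is that of Asator in adults (1.02), and the largest from D. simulans that of CG2201 in late pupae (1.55).

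The hybrids did not differ from their parents at the threshold in any of the 24 tests, while 0.176%, 0.0586%, 0% and 2.99% of all genes were called against D. sechellia in larvae, early pupae, late pupae and adults, and 0.117% and 2.29% against D. simulans in larvae and early pupae. At the stage that chose each gene the hybrids were close to D. sechellia for CG2201 (0.15, SE 0.30), Asator (0.17, SE 0.28) and CG8066 (0.11, SE 0.35). For Gli their mean lay between the parents, at 0.59 (SE 0.44) relative to D. sechellia and -0.83, not tested, relative to D. simulans. That mean averaged unlike pools, with pools 1 and 2 at 2.47 and 2.33 and pool 3 at 1.25. Relative to D. simulans the hybrids were higher by 1.55 for CG2201 and 0.90 for Asator in late pupae and by 0.87 for CG8066 in adults, also not tested. In larvae and early pupae CG8066 instead lay close to D. simulans, at 0.01 and -0.05, and differed from D. sechellia by -0.69 and -0.51 (SE 0.33 each). The hybrid Asator means of -1.33 in larvae and -1.58 in early pupae were below those of both parents, by -0.59 from D. sechellia and -0.57 from D. simulans in early pupae (adjusted p of 0.997 and 0.368, limma), and the early pupal pools did not overlap with either parent.

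**Figure D4:**
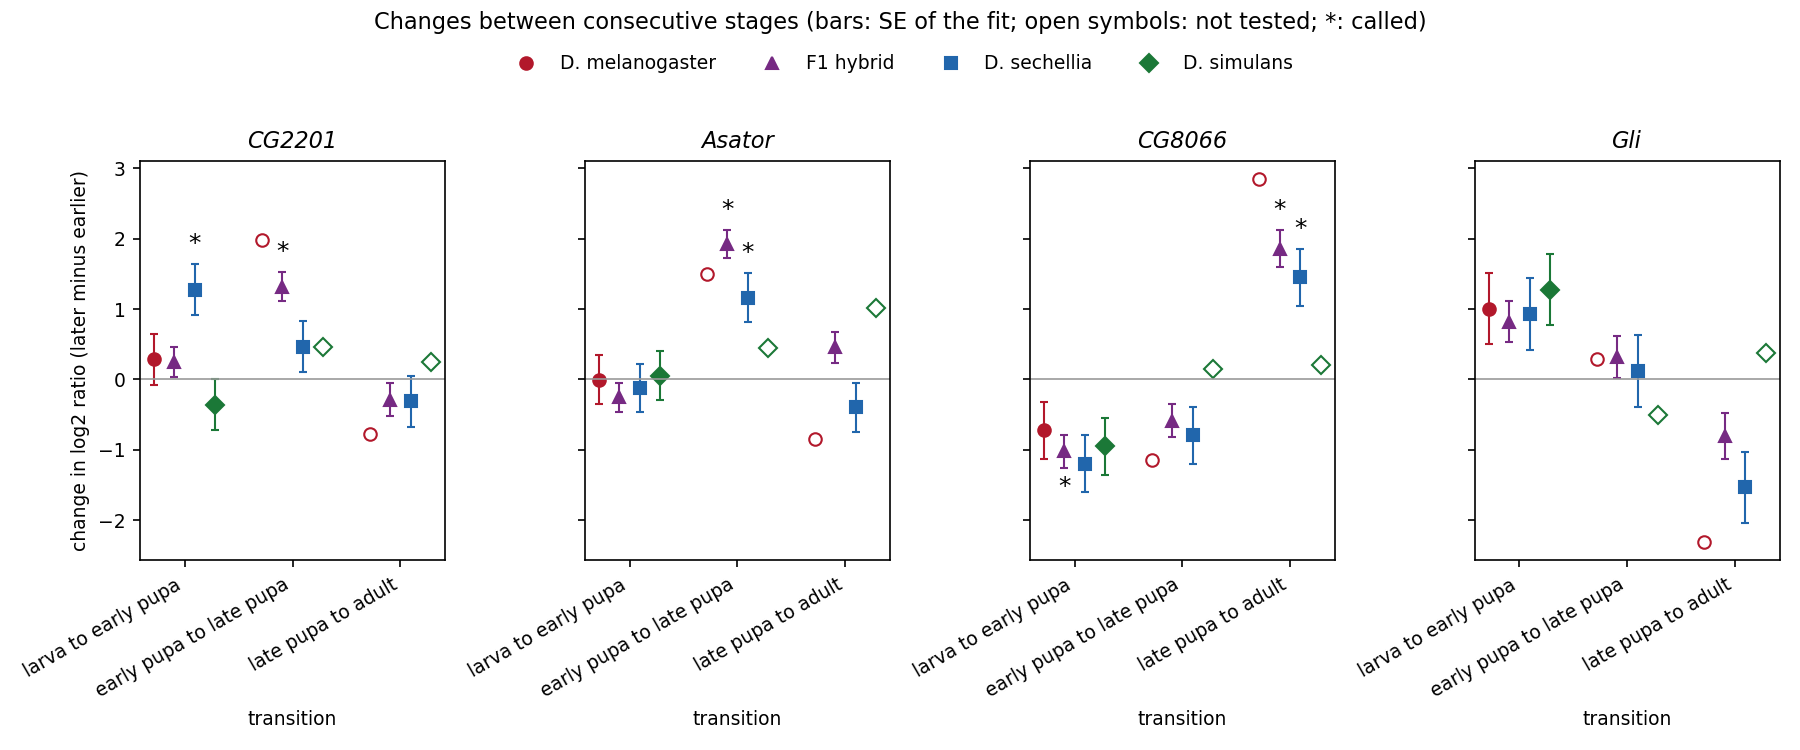
Change in log2 ratio between consecutive stages, later minus earlier (vertical axis), for each transition (horizontal axis), gene and group, with bars for the SE of the fit, asterisks for the 7 called changes and open symbols for changes that were not tested. Asator and CG2201 rise between early and late pupae in the hybrids, and CG8066 rises between late pupae and adults in the hybrids and D. sechellia.

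The 7 called stage changes were spread over 6 of the 8 comparisons. Between larvae and early pupae 1 of the 4 genes was called in D. sechellia (CG2201, higher) and 1 in the hybrids (CG8066, lower), against 11.2% and 19.9% of all genes, and 0 in D. melanogaster and D. simulans, against 3.62% and 5.35%. Between early and late pupae 1 was called in D. sechellia (Asator) and 2 in the hybrids (CG2201 and Asator), all higher in late pupae, against 8.87% and 38.3%. Between late pupae and adults CG8066 was called higher in both groups, against 5.35% in D. sechellia and 13.0% in the hybrids. With 4 genes per comparison these shares cannot be read against the background. Tests of whether a stage change differed between groups gave no gene of the 4 an adjusted p under 0.05, for the 3 pairs of species and for the hybrids against each parent between larvae and early pupae, and for the hybrids against D. sechellia at the later steps.

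Other measured genes of the same pathways were described from lists drawn up with earlier results of these data known. Of the phospholipid synthesis list, 8 genes were measured (6 in the hybrids), and they gave 3 calls higher and 1 lower in 58 tests of stage changes (6.9%, against the 12.8% of all such tests). The genes called were eas, which encodes the ethanolamine kinase that acts at the same step as the enzyme class of CG2201, and Pis, a phosphatidylinositol synthase. Between larvae and early pupae eas rose by 1.09 in the hybrids (SE 0.25, adjusted p = 0.00373, limma) and 1.69 in D. sechellia (SE 0.43, adjusted p = 0.0177), where CG2201 was called too, and in the hybrids it fell by 0.83 between early and late pupae (adjusted p = 0.0129), where CG2201 rose. Pis rose by 1.11 between hybrid late pupae and adults (adjusted p = 0.00770). The median change of the list between early and late pupae was -0.22 in the hybrids, against -0.01 over all genes.

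The septate and tricellular junction list had 8 measured genes (7 in the hybrids), with 5 calls higher and 5 lower in 61 tests of stage changes (16.4%, against 12.8% of all such tests). Between early and late pupae nrv3, a beta subunit of the sodium pump, rose by 2.80 in the hybrids (SE 0.21, adjusted p = 1.88e-08, limma) and 3.21 in D. sechellia (SE 0.37, adjusted p = 1.84e-05). Cont, the septate junction adhesion protein contactin, and M6, a membrane protein of tricellular junctions, each fell by 1.11 between late pupae and adults in the hybrids (adjusted p = 0.00726 and 0.0403), the step at which Gli changed by -0.81 and was not called. The gene coro, which encodes the actin-binding protein coronin and no septate junction component, gave 5 of these 10 calls. It fell between larvae and early pupae in the hybrids, D. sechellia and D. simulans (by 1.04, 1.87 and 2.21) and rose between early and late pupae in the hybrids (0.97) and D. sechellia (1.39), and the receptor gene moody rose by 0.91 between hybrid larvae and early pupae. The list median between hybrid late pupae and adults was -0.05, against -0.01 over all genes.

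The cystatin and cysteine protease list had 3 measured genes, Swim, CG6357 and cer, with 7 calls higher and 8 lower in 24 tests of stage changes (62.5%, against 12.8% of all such tests). Swim, which encodes a secreted protein related to cathepsin B, fell by 2.06 between hybrid early and late pupae and rose by 3.37 to hybrid adults (adjusted p = 4.68e-08, limma) and by 2.82 to D. sechellia adults (adjusted p = 1.03e-04), the step at which CG8066 was called higher in both groups. The protease gene CG6357 fell by 1.58 there in D. sechellia, and cer (crammer), an inhibitor of cysteine proteases, fell by 2.48 there in the hybrids. CG6357 also gave the only calls between groups from these lists, 2 of 18 tests of hybrids against parents (0.938% of all such tests were called), at 1.62 relative to D. simulans in early pupae (adjusted p = 0.0128) and 1.29 relative to D. sechellia in adults (adjusted p = 0.0472). The spindle matrix and casein kinase 1 list had 3 measured genes and 1 call in 24 tests of stage changes (4.17%, against 12.8% of all such tests), Mapmodulin, which fell by 1.08 between hybrid early and late pupae (adjusted p = 0.00546). Between pure species in larvae and early pupae, no gene of the 4 lists was called.

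**Figure D5:**
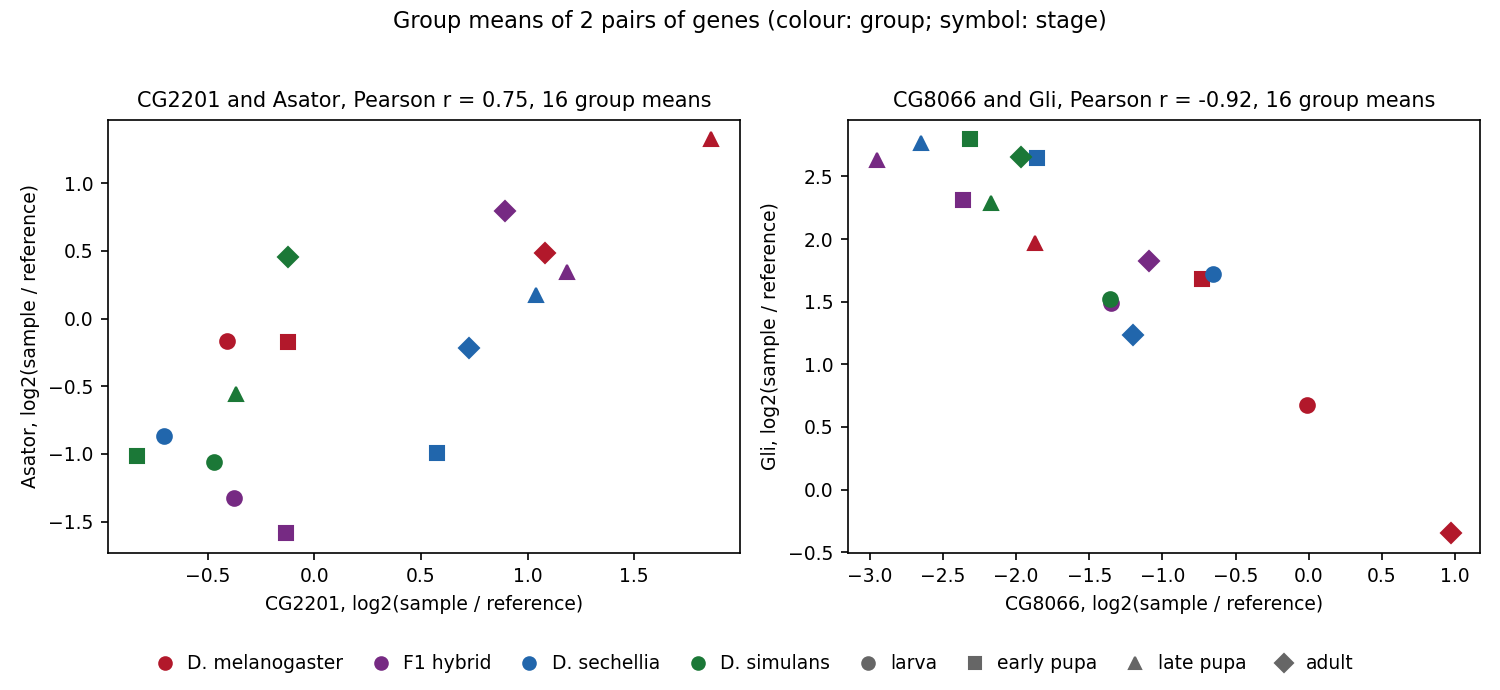
Group means of Asator against CG2201 and of Gli against CG8066, each as log2 ratio of sample to reference on both axes, with 1 point for each of the 16 groups, coloured by species or hybrid and shaped by stage. CG2201 and Asator run together (r = 0.75), while CG8066 and Gli run in opposite directions (r = -0.92), with D. melanogaster adults at the far end.

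Across the 16 group means, CG2201 and Asator had a Pearson correlation of 0.75 and CG8066 and Gli one of -0.92, while the other pairs lay between -0.14 and 0.13. The points share reference, stages and, within a stage, arrays, and the groups that chose the genes are among them, so these are descriptions with no p. In the pair of CG8066 and Gli, D. melanogaster adults had the highest CG8066 and the lowest Gli, and the late pupae of the hybrids and D. sechellia had the lowest CG8066 (-2.95 and -2.65) with Gli at 2.63 and 2.77. Among the 1705 other genes measured in all 16 groups, those most like CG2201 were mRpS5 (r = 0.87), Dyb (0.83), CYLD (0.82), LpR1 (0.78) and Pur-alpha (0.77), and those most like Asator were emp (0.81), ND-15 (0.80), unc-13 (0.80), Scp1 (0.78) and Hcs (0.77). For CG8066 they included CG5002 (0.83), CG46339 (0.79), brun (0.77) and Sfxn1-3 (0.77), and for Gli CG4511 (0.87), AP-2sigma (0.81), CG31815 (0.80), nxf2 (0.78) and Arglu1 (0.75).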

How the data were processed

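The files held log2 ratios of sample to reference for 48 arrays, 1 value per spot, deposited by the authors after a joint loess correction for signal intensity and position on the array. The scale and direction follow from the methods, and the array medians lay between -0.07 and 0.09. No raw intensities were used here, so levels cannot be compared between genes. The authors amplified sample RNA, used 1 dye for samples and another for the reference, with no dye swap. Spots of an element were averaged, 1 element was kept per gene, and near-identical arrays were merged, giving 23 units in 16 groups. One limma model (version 3.58.1, R 4.3.3) took its spread from the hybrid pools with 7 residual degrees of freedom and 10.2 prior ones, and p-values were adjusted by Benjamini-Hochberg over 1906 genes (1706 with hybrids) in each comparison. Alternatives numbered 25. Figures used matplotlib 3.10.9, and tables pandas 2.3.3 under Python 3.11.15. The fit was tested on simulated data. Members and lists were chosen with earlier results of these data known. The text names the 4 genes, genes just outside the threshold, called genes of the lists and the 5 genes most like each member, of which 1 is not reported here. Replicate numbers did not pair the samples. The number of arrays limits the precision. Gene chromosomes are from the RefSeq table of Release 6.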

Additional observations from a re-analysis of the deposited data

Results flagged for a closer look

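In 9 pairs of groups a gene changed in opposite directions between consecutive stages, with every array of the later stage above every array of the earlier one in 1 group and below in the other. Between larvae and early pupae CG2201 changed by 0.29 in D. melanogaster and -0.36 in D. simulans (1.21% of all genes did so between these groups), and by 1.28 in D. sechellia against -0.36 in D. simulans (2.05% of genes). The difference of the changes was 0.65 between D. melanogaster and D. simulans (limma, unadjusted p = 0.222, adjusted p = 0.998) and 1.64 between D. sechellia and D. simulans (unadjusted p = 0.00516, adjusted p = 0.956).

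Between early and late pupae Gli changed by 0.29 in D. melanogaster and -0.51 in D. simulans (4.09% of genes). Between late pupae and adults Asator changed by -0.84 in D. melanogaster, against 0.46 in the hybrids (1.64% of genes) and 1.01 in D. simulans (3.57%), by 0.46 in the hybrids against -0.39 in D. sechellia (5.8%), and by -0.39 in D. sechellia against 1.01 in D. simulans (7.92%). Over the same step Gli changed by -2.31 in D. melanogaster, against 0.37 in D. simulans (3.57% of genes), and by -1.53 in D. sechellia, against 0.37 in D. simulans (7.92%). Of these, the difference of Asator between the hybrids and D. sechellia was 0.85 (limma, unadjusted p = 0.0553, adjusted p = 0.728). The others use late pupae or adults of D. melanogaster or D. simulans, which chose the genes, and their differences were not tested. No group had the 4 or more samples needed to look for single outlying values.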

How the results depend on the processing

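The counts of calls depended most on what was taken as a replicate. With every array as a replicate, which treats technical arrays of 1 pool as independent, 16 of 24 species differences, 5 of 24 hybrid differences and 17 of 32 stage changes were called, against 24.3%, 17.2% and 36.3% of all such tests over all genes. Adding the replicate number as a block to that fit left the counts at 16, 5 and 17 (24.6%, 17.3% and 36.4% over all genes), and a test over spots modelled on SAM, the test in the methods, gave 16, 6 and 18, against 26.9%, 20.3% and 37.6% over all genes. Same-numbered arrays of different groups did not deviate together (median r 0.008, against -0.004 for different numbers), so the numbers were not used as pairs. With 3 numbers to match, 22 of 48 arrays correlated best with their own number, a count given as a description. Without merging near-identical arrays 1 hybrid difference was called (1.34% over all genes). Over the fits that left out 1 array number or 1 hybrid pool, the counts were 0 to 1 for species differences (1 without hybrid larval pool 1), 0 for hybrid differences and 3 to 11 for stage changes (3 without array number 2 or 3, 11 without hybrid larval pool 1).

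For the differences that chose the genes, leaving out 1 array number gave 2.08 to 2.32 for CG2201, 1.79 to 2.21 for Asator, 2.58 to 2.92 for CG8066 and -3.11 to -2.86 for Gli, and quantile normalization gave -2.73 for Gli. Over the 25 tested differences with an unadjusted p under 0.05, 625 values were recomputed, of which 530 kept their direction and side of the threshold, 27 lost a call (in 4 differences), 68 gained one (in 18) and 0 changed direction. The precision is limited by the single pool of each pure group.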
